A study of Caenorhabditis elegans with 12 samples.

Results

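The genes described here are 8 Caenorhabditis elegans genes that make or carry piRNAs, out of 24619 genes in the deposited tables. They were chosen by name: snpc-1.3, snpc-4, prde-1, tofu-4, tofu-5, prg-1, henn-1 and parn-1, each matched through its WBGene identifier to its WormBase symbol. The choice was made with earlier results of these libraries known, and snpc-1.3 was singled out in it, so the levels of snpc-1.3 are given as a description with no test. Libraries of polyadenylated RNA came from whole young adults, in a study of fertility and of the relation between ADR-2, an enzyme that edits adenosines in double-stranded RNA, and SQD-1, an RNA-binding protein. The 4 groups of 3 libraries were adr-2(-) animals (strain BB20, allele ok735) on sqd-1 RNAi, wild-type animals (strain N2) on sqd-1 RNAi, adr-2(-) animals on control RNAi and wild-type animals on control RNAi. Embryos hatched on plates carrying the RNAi vector, which was empty for control RNAi. Nothing in the labels says whether replicates were separate cultures, so p-values measure the spread between these libraries, which may be technical.

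In C. elegans, piRNAs are short germ-line RNAs that guide the Piwi Argonaute PRG-1 to transcripts and keep foreign sequences silent. Each is transcribed from its own small gene, most of them in clusters on chromosome IV, and the precursor is then trimmed at both ends and methylated. Males and hermaphrodites that make sperm use a partly different set of piRNAs from hermaphrodites that make oocytes, and SNPC-1.3 is known as the factor that drives the male set, while TRA-1, the terminal regulator of sex determination, is known to repress snpc-1.3 in hermaphrodites that make oocytes.

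Both targeted genes followed their labels. Normalized reads of sqd-1 lay between 1106 and 1863 in the 6 sqd-1 RNAi libraries, against 11472 to 29363 in the 6 control RNAi libraries, and adr-2 had 0 to 4 reads in each adr-2(-) library. In wild-type, adr-2 itself had 328, 470 and 343 normalized reads on sqd-1 RNAi, against 802, 975 and 781 on control RNAi, and fell by 1.21 ± 0.18 on the log2 scale (limma adjusted p = 8.82e-05). Genotype comparisons on sqd-1 RNAi therefore set adr-2(-) against wild-type animals with lowered adr-2 reads. Total reads ran from 29042770 to 33984832 per library, of which 12.9 to 23.8 M lay outside ribosomal RNA genes. Levels below are normalized reads, that is reads divided by 1 size factor per library over all 12 libraries. Fold changes come from each deposited table of 6 libraries on the log2(value + 1) scale, with limma and a Benjamini-Hochberg adjusted p under 0.05 as the call.

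The 8 genes are all annotated as protein coding and lie apart in the genome (WBcel235). The gene snpc-1.3 (WBGene00017265) is on the - strand of chromosome V at 5437084 to 5439168, prde-1 (WBGene00008995) is on V at 15538244 to 15547086, and parn-1 (WBGene00010734) is on V at 12692486 to 12695255. Chromosome I holds snpc-4 (WBGene00001568) at 8962322 to 8966129, tofu-4 (WBGene00019013) at 4824904 to 4826639, tofu-5 (WBGene00012167) at 7069440 to 7070665 and prg-1 (WBGene00004178) at 7585329 to 7588367. The last, henn-1 (WBGene00015349), is on III at 8232651 to 8234611. Overlap with exons of neighbouring genes took at most 6.09% of the exon bases of a member, which was at tofu-4, and 0.801% of those of snpc-1.3. The antisense neighbour of snpc-1.3, acl-6, had 454, 683 and 484 normalized reads in wild-type on sqd-1 RNAi, against 1326, 1650 and 1413 on control RNAi, a change opposite to that of snpc-1.3.

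The order of the genes by level was set by reads per kb of exon, the only scale on which genes are compared here. On control RNAi in wild-type, prg-1 led with 1907 ± 364 normalized reads per kb (SD, n = 3), followed by tofu-5 at 964 ± 118, snpc-4 at 703 ± 76.4, henn-1 at 568 ± 28.1, prde-1 at 298 ± 12.4, tofu-4 at 264 ± 41.2 and parn-1 at 166 ± 10.1. The lowest by far was snpc-1.3 at 13.4 ± 3.83. Among neighbours in that order, only the libraries of prde-1 and tofu-4 overlapped. On sqd-1 RNAi in wild-type, prg-1 was again first at 1187 ± 46.3 per kb and clear of henn-1 at 440 ± 46.4, while every later pair of neighbours overlapped. There snpc-1.3 stood next after tofu-5 at 186 ± 64.2 per kb, above parn-1, prde-1 and tofu-4. On sqd-1 RNAi in adr-2(-), snpc-1.3 stood at 431 ± 232 per kb, and its libraries overlapped those of its neighbours snpc-4 and parn-1.

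**Figure D1:**
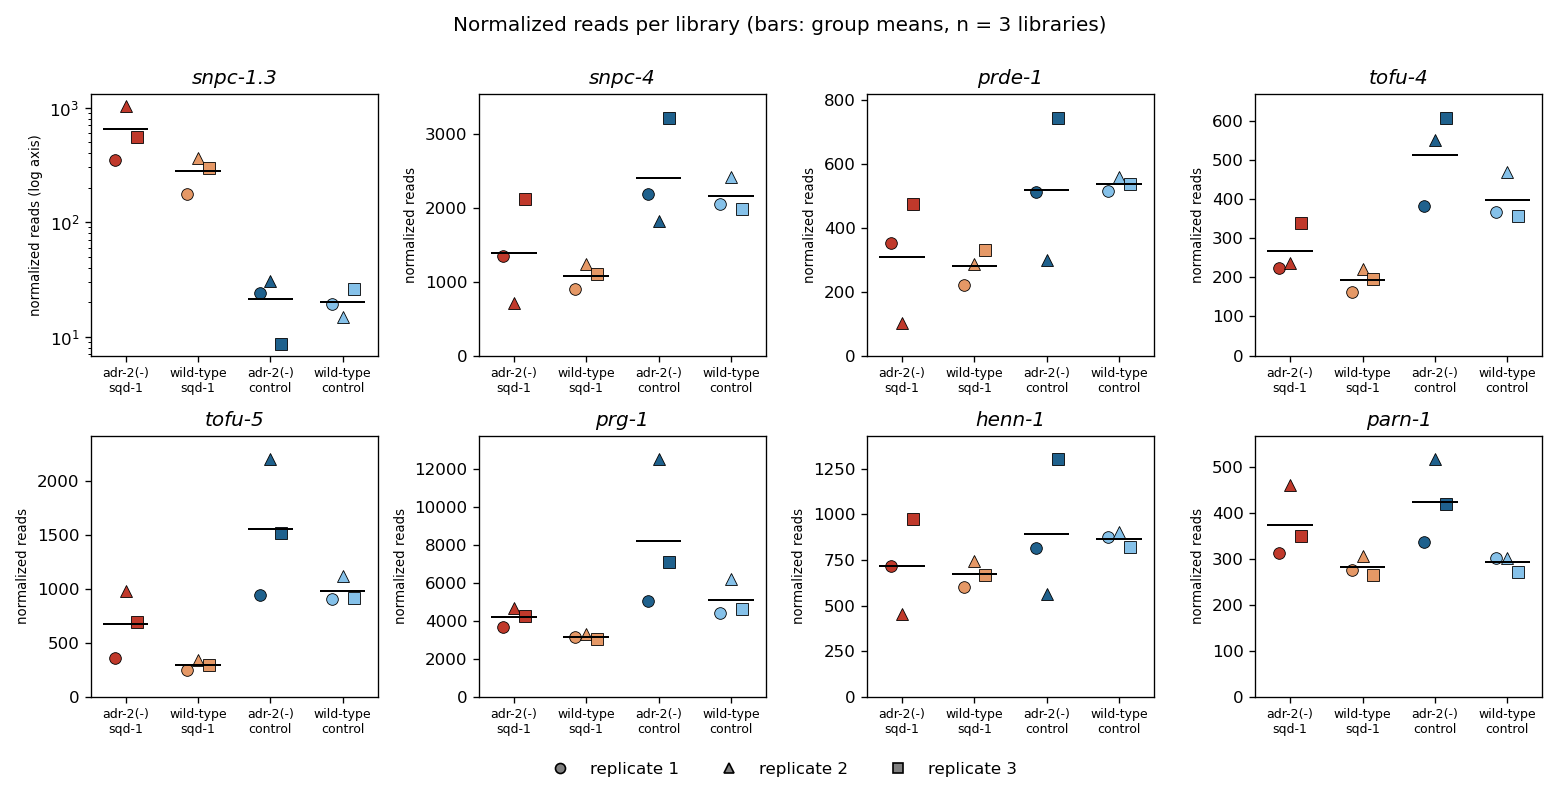
Normalized reads of each of the 8 genes in every library, by group; symbols mark the replicate number, bars the group mean (n = 3), and snpc-1.3 has a log axis. The snpc-1.3 libraries on sqd-1 RNAi (175 to 1028) all lie above those on control RNAi (8.70 to 30.7), while most other genes sit lower on sqd-1 RNAi.

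The male factor snpc-1.3 was the one gene of the 8 that was higher on sqd-1 RNAi. It had 351, 1028 and 556 normalized reads in adr-2(-) on sqd-1 RNAi and 175, 364 and 299 in wild-type on sqd-1 RNAi, against 24.1, 30.7 and 8.70 in adr-2(-) on control RNAi and 19.4, 14.7 and 26.1 in wild-type on control RNAi. All 6 sqd-1 RNAi libraries were above all 6 control RNAi libraries, with no overlap, and the lowest library held 11 reads of it before normalization. The share of all genes that were higher without overlap is not given here. In wild-type, limma called 27.3% of 14489 tested genes higher. In adr-2(-) it called 0.0284% of 14068 higher, or 17.1% with the replicate number as a block. For snpc-1.3, the ratio of means on sqd-1 RNAi over control RNAi was 30.4 in adr-2(-) and 13.9 in wild-type. The fitted log2 fold changes were 4.92 ± 0.60 (SE) in adr-2(-) and 3.67 ± 0.29 in wild-type, and the authors' deposited table gives 5.005 ± 0.635 in adr-2(-) and 3.73 ± 0.33 in wild-type. Within replicate pairs, the log2 change was 3.81, 5.02 and 5.84 in adr-2(-) and 3.11, 4.54 and 3.46 in wild-type.

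Between genotypes the snpc-1.3 libraries overlapped on both kinds of RNAi. On sqd-1 RNAi its mean was 645 ± 347 normalized reads in adr-2(-) and 279 ± 96.1 in wild-type (SD, n = 3 each), a ratio of 2.31, and replicate 1 of adr-2(-) lay below replicate 2 of wild-type. On control RNAi the means were 21.2 ± 11.3 in adr-2(-) and 20.1 ± 5.74 in wild-type. The difference between genotypes in the response to sqd-1 RNAi was 1.19 ± 0.72 (SE) on the log2 scale over the 12 libraries.

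Within the snpc-1 paralogue family, which encodes alternative subunits of the small nuclear RNA activating complex, snpc-1.3 held a larger share of the reads on sqd-1 RNAi, while snpc-1.1 and snpc-1.2 were lower. Of the summed reads per kb of snpc-1.1, snpc-1.2 and snpc-1.3, snpc-1.3 held 29.0%, 45.5% and 25.3% in adr-2(-) on sqd-1 RNAi and 25.3%, 31.6% and 33.97% in wild-type on sqd-1 RNAi. Its share was 1.32%, 1.14% and 0.289% in adr-2(-) on control RNAi and 1.08%, 0.664% and 1.42% in wild-type on control RNAi. So every sqd-1 RNAi library gave at least 25.3% and every control RNAi library at most 1.42%. In wild-type, snpc-1.1 fell by 1.41 ± 0.19 and snpc-1.2 by 1.93 ± 0.19 on the log2 scale (limma adjusted p = 3.31e-05 and 4.96e-06). The regulator tra-1 had 1380, 1196 and 1104 normalized reads in wild-type on sqd-1 RNAi, against 1448, 1820 and 1554 on control RNAi, and fell by 0.43 on the log2 scale (limma adjusted p = 0.0358), a call that was lost with edgeR (-0.22, adjusted p = 0.215).

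**Figure D2:**
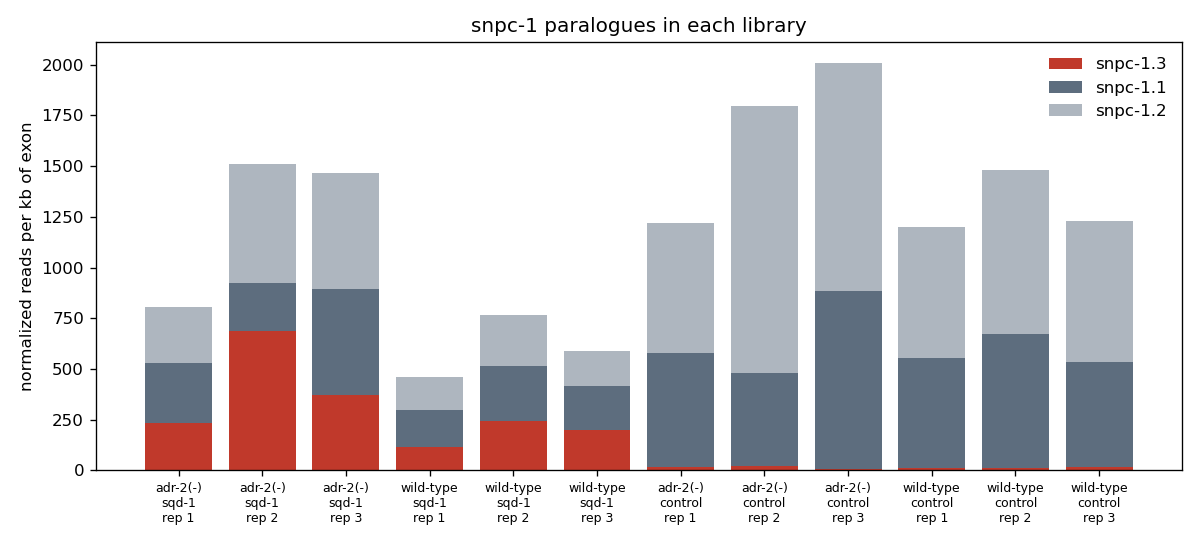
Stacked normalized reads per kb of exon of snpc-1.3, snpc-1.1 and snpc-1.2 in each of the 12 libraries, without error bars as each bar is 1 library. The snpc-1.3 part takes 25.3% to 45.5% of a bar on sqd-1 RNAi and 0.289% to 1.42% on control RNAi.

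Of the other 7 genes, 6 fell on sqd-1 RNAi in wild-type and none rose, all in the limma fit over every gene. In that comparison 61.1% of the 14489 tested genes were called, 27.3% as higher and 33.8% as lower, so a fall was common among all genes. Among the 7 genes, the falls were largest in the 4 genes of the upstream sequence transcription complex. This is the SNPC-4, PRDE-1, TOFU-4 and TOFU-5 assembly that binds piRNA promoters. Medians over 34 other piRNA genes and 17 tested germ-line markers, both described below, were -1.04 and -1.08. Since the set was drawn up with these results known, nothing about the set is read from the count. Relative to the median of all genes, which moved by 0.04 on the log2 scale, the 7 values ran from -1.82 for tofu-5 to -0.13 for parn-1.

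The largest fall was at tofu-5, which had 247, 338 and 296 normalized reads in wild-type on sqd-1 RNAi, against 904, 1119 and 919 on control RNAi. Each sqd-1 RNAi library held less than any control library, and the fold change was -1.78 ± 0.18 (log2, SE; limma adjusted p = 4.62e-06). Its partner tofu-4 had 162, 221 and 196 on sqd-1 RNAi, against 369, 470 and 357 on control RNAi. Those groups did not overlap either, and tofu-4 fell by 1.08 ± 0.19 (limma adjusted p = 0.000259).

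The DNA-binding subunit snpc-4, which piRNA genes share with small nuclear RNA genes, had 901, 1239 and 1110 normalized reads in wild-type on sqd-1 RNAi, against 2054, 2425 and 1991 on control RNAi. It fell by 1.04 ± 0.17 on the log2 scale (limma adjusted p = 0.000146), to 50.2% of the control mean. The germ-line factor prde-1, which recruits SNPC-4 to piRNA clusters, had 220, 287 and 331 on sqd-1 RNAi, against 515, 560 and 536 on control RNAi. It fell by 1.00 ± 0.18 (limma adjusted p = 0.000348), to 52.1% of the control mean. Neither gene had a sqd-1 RNAi library that reached the control range.

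The Argonaute gene prg-1 had 3154, 3293 and 3047 normalized reads in wild-type on sqd-1 RNAi, against 4408, 6196 and 4645 on control RNAi. Its groups did not overlap, and it fell by 0.71 ± 0.17 on the log2 scale (limma adjusted p = 0.00254).

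Among the members, the maturation genes henn-1 and parn-1 had the smallest changes. This does not hold for piRNA maturation genes in general. The 10 other processing genes, described below, all fell in wild-type by limma, with a median of -1.24 on the log2 scale. The methyltransferase gene henn-1, whose product methylates the end of mature piRNAs, had 601, 743 and 669 normalized reads in wild-type on sqd-1 RNAi, against 875, 905 and 820 on control RNAi. It fell by 0.41 ± 0.16 (limma adjusted p = 0.0343), a call that was lost with TMM scaling (-0.28, limma adjusted p = 0.108) and with edgeR on whole reads (-0.21, adjusted p = 0.165), and without any 1 of 5 of the 6 libraries (limma adjusted p from 0.0618 to 0.106). The trimmer gene parn-1, whose product shortens piRNA precursors, had 276, 306 and 265 on sqd-1 RNAi, against 302, 303 and 272 on control RNAi, and its groups overlapped. Its value was -0.09 ± 0.16 (limma adjusted p = 0.645), and the sign turned with TMM scaling (0.04) and with edgeR (0.11).

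Fitted jointly with the adr-2(-) libraries, the wild-type values of prde-1 (-0.96), prg-1 (-0.67) and henn-1 (-0.37) were not called (limma adjusted p = 0.157, 0.0967 and 0.388). TMM and edgeR scaling moved all genes together. The median of all genes was 0.18 with TMM and 0.24 with edgeR, and against these medians henn-1 stood at -0.46 and -0.45, near the -0.45 of the first fit, and parn-1 at -0.14 and -0.13, near -0.13. Of all calls, 44.7% were higher in the first fit and 55.6% with edgeR. Of the 7 members, 6 were lower without overlap between the groups, as were 36.4% of all tested genes.

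In adr-2(-) the same 7 genes had lower values on sqd-1 RNAi in every replicate pair, but their libraries were more spread. The limma fit without pairing called 0 of the 7, with 0.0284% of 14068 genes called in all, 2981 genes at an unadjusted p under 0.05 and 3 genes called by edgeR. That limma fit also missed the targeted gene sqd-1 itself, at -3.72 ± 0.40 (limma adjusted p = 0.0627). The authors' deposited DESeq2 values do call sqd-1 lower in adr-2(-) (-3.79 ± 0.47, DESeq2 adjusted p = 2.28e-12). For the 7 genes they give DESeq2 adjusted p from 0.179 for tofu-4 to 0.868 for parn-1. Same-numbered libraries moved together in adr-2(-), and with the replicate number as a block 5 of the 7 fell and 45.6% of all genes were called, 17.1% as higher and 28.5% as lower. Blocked values were -1.19 ± 0.14 for tofu-5 (limma adjusted p = 0.00784), -0.91 ± 0.15 for tofu-4 (0.00890), -0.88 ± 0.22 for prde-1 (0.0253), -0.85 ± 0.17 for snpc-4 (0.0138) and -0.84 ± 0.18 for prg-1 (0.0163). The values for henn-1 and parn-1, -0.27 ± 0.12 and -0.14 ± 0.13, were not called (limma adjusted p = 0.111 and 0.406 with the block).

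The libraries show where the spread lay. In adr-2(-), tofu-5 had 362, 977 and 696 normalized reads on sqd-1 RNAi, against 945, 2202 and 1522 on control RNAi, so replicate 2 was highest in both groups and replicate 1 lowest. The same order held for prg-1, with 3659, 4700 and 4277 on sqd-1 RNAi, against 5037, 12513 and 7119 on control RNAi, where the groups did not overlap. The trimmer gene parn-1, at 312, 461 and 351 on sqd-1 RNAi, against 337, 517 and 419 on control RNAi, was likewise highest in replicate 2, and its groups overlapped.

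Replicate 2 was lowest in both adr-2(-) groups for 3 other genes. The gene snpc-4 had 1351, 710 and 2127 normalized reads on sqd-1 RNAi, against 2184, 1820 and 3220 on control RNAi. For prde-1 these were 351, 101 and 474 on sqd-1 RNAi, against 513, 298 and 743 on control RNAi, and for henn-1 they were 717, 454 and 976, against 818, 562 and 1302. The gene tofu-4, at 223, 237 and 340 on sqd-1 RNAi, against 382, 553 and 608 on control RNAi, followed neither order, and its groups did not overlap. Only tofu-4 and prg-1 were lower without overlap, where 14.4% of all genes were. Replicate 2 of adr-2(-) on control RNAi also had the smallest size factor of the 12 libraries (0.553). Without both replicate 2 libraries, the adr-2(-) values were -1.24 for tofu-5, -0.79 for tofu-4, -0.63 for snpc-4, -0.58 for prde-1 and -0.58 for prg-1, and 4.84 for snpc-1.3. The unpaired limma fit called none of the 7 genes with or without these libraries, while the blocked fit of the remaining 4 libraries, which leaves 1 residual degree of freedom per gene, called the same 5 genes lower (limma adjusted p from 0.0229 to 0.0397) and 5605 of 14080 genes in all.

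**Figure D3:**
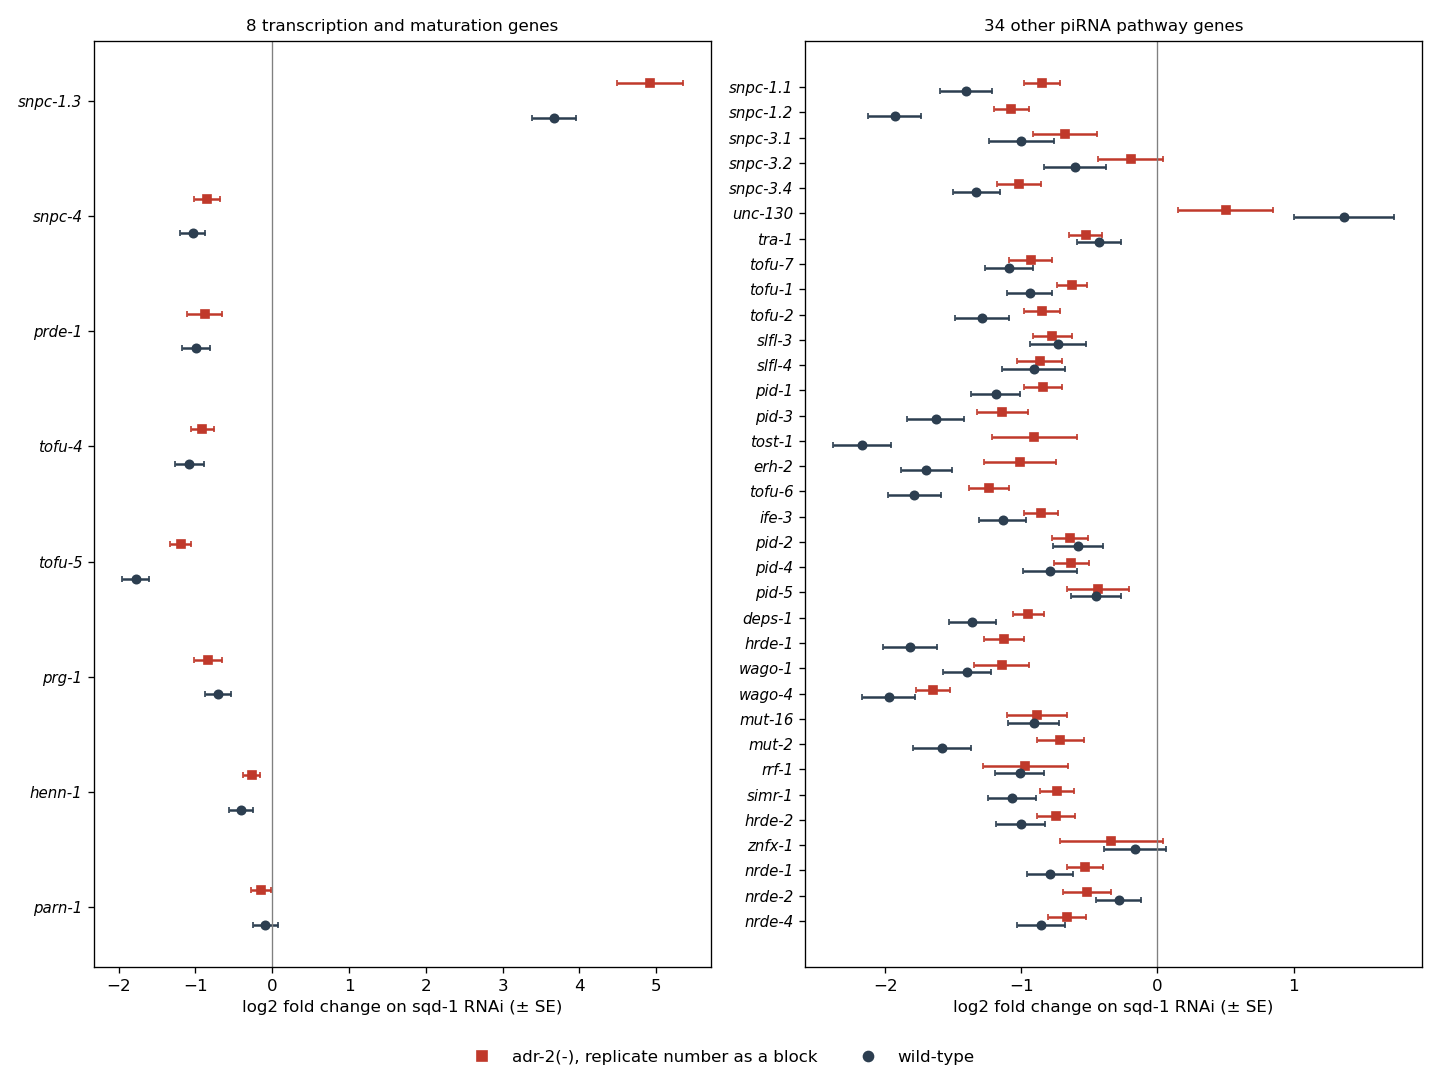
Log2 fold change on sqd-1 RNAi over control RNAi (± SE, horizontal axis) of the 8 genes (left) and 34 other piRNA pathway genes (right), in adr-2(-) with the replicate block (squares) and in wild-type (circles). The gene snpc-1.3 stands at 4.92 in adr-2(-) and 3.67 in wild-type, and the other 7 members lie between -1.78 and -0.09.

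Loss of adr-2 alone changed none of the 7 genes past the threshold. On control RNAi the limma fit called 0 of 7 and 0.00737% of 13566 genes, with values from 0.54 ± 0.32 for prg-1 (adjusted p = 0.600) to -0.21 ± 0.33 for prde-1 (adjusted p = 0.800). Only parn-1 did not overlap between adr-2(-) and wild-type there, and it was higher in adr-2(-), with a value of 0.45 ± 0.21 (limma adjusted p = 0.600), where 5.07% of all genes were higher without overlap. On sqd-1 RNAi the count was 0 of 7, with 0% of 14697 genes called by limma or by edgeR and 1781 at an unadjusted p under 0.05. Neither fit called adr-2 itself, at -7.89 ± 0.69 in limma (limma adjusted p = 0.157, edgeR adjusted p = 0.249). An absent call there therefore does not show that a gene was unchanged. The authors' deposited DESeq2 values do call adr-2 lower there (-8.29 ± 0.83, DESeq2 adjusted p = 1.61e-19). For the 7 genes they give DESeq2 adjusted p from 0.146 for tofu-5 to 0.943 for henn-1. Libraries of tofu-5, tofu-4, prg-1 and parn-1 in adr-2(-) were all above those of wild-type on sqd-1 RNAi, where 14.5% of all genes were higher without overlap. The largest of these values was 1.09 ± 0.39 for tofu-5 (limma adjusted p = 0.389), for which the means were 678 ± 308 normalized reads in adr-2(-) and 294 ± 45.7 in wild-type (SD, n = 3 each).

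For animals with both adr-2 loss and sqd-1 RNAi against wild-type on control RNAi, limma called 0 of 7 genes and 0.0422% of 14206 genes (0.0282% as higher and 0.0141% as lower), while edgeR called 194 genes. Only prde-1 and tofu-4 were lower without overlap, at -1.07 ± 0.54 and -0.60 ± 0.26 (limma adjusted p = 0.370 and 0.322), where 13.7% of all genes were lower without overlap. Levels of parn-1 were above wild-type in all 3 libraries, at 0.33 ± 0.24 (limma adjusted p = 0.487), where 12.5% of all genes were higher without overlap. These comparisons share libraries with those above. The value for snpc-1.3 was 4.83 ± 0.45.

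Whether the response to sqd-1 RNAi differed between genotypes was tested over the 12 libraries. No gene was called (0 of 14266, with 205 at an unadjusted p under 0.05, and 0 with edgeR), and the 7 differences ran from 0.51 ± 0.52 for tofu-5 to -0.20 ± 0.41 for prg-1 (limma adjusted p = 1.00 each). With the replicate block, tofu-5 had a difference of 0.51 ± 0.15, an unadjusted limma p of 0.00855 and a limma adjusted p of 0.246. Again 0% of genes were called, while 1419 of the 14266 had an unadjusted p under 0.05. The fall of tofu-5 was smaller in each of the 3 adr-2(-) pairs, at -1.38, -1.17 and -1.13, than in each of the 3 wild-type pairs, at -1.87, -1.72 and -1.63. How many of all genes were separated in this way was not counted.

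Other genes of the piRNA pathway were taken from 3 lists of 37 names, of which 34 were in the tables and tested. In wild-type on sqd-1 RNAi, 31 of the 34 fell and 1 rose by limma, with a median of -1.04 on the log2 scale, against 0.04 over all tested genes, of which 33.8% fell. With edgeR 27 of the 34 were called lower and 1 higher, where 4169 of 14489 genes were called lower. In adr-2(-) the count was 0 without pairing and 26 lower with the replicate block, with a median of -0.84, against -0.03 over all genes, of which 28.5% were called lower with the block. The lists and the members were drawn up with results known, so the counts describe them only.

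Among the other transcription genes, 7 of 8 fell in wild-type by limma and 5 with edgeR. The 7 include the regulator tra-1, whose call was lost with edgeR. Besides snpc-1.1 and snpc-1.2, the falls included snpc-3.4 at -1.33 ± 0.17 (limma adjusted p = 2.62e-05), a paralogue of another subunit of the same complex, and tofu-7 at -1.09 ± 0.18 (limma adjusted p = 0.000136). The single rise in the whole set was unc-130, a forkhead transcription factor gene, at 1.37 ± 0.37 (limma adjusted p = 0.00561). It had few reads, at 29.8, 59.0 and 42.02 normalized reads on sqd-1 RNAi, against 9.68, 23.3 and 15.5 on control RNAi. In adr-2(-) unc-130 was at 0.50 ± 0.35 with the block, which was not called (limma adjusted p = 0.284).

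All 10 processing genes fell in wild-type. These encode the nuclease that cuts the front of the precursor (tofu-1, tofu-2, slfl-3 and slfl-4) and the PETISCO complex with its adaptors. The largest falls were at tost-1, an adaptor of PETISCO, at -2.17 ± 0.21, then tofu-6 at -1.79 ± 0.20, erh-2 at -1.70 ± 0.19 and pid-3 at -1.63 ± 0.21, which are PETISCO subunits (limma adjusted p from 2.41e-05 to 4.22e-06). In adr-2(-) with the block, tofu-6 was at -1.24 ± 0.15, pid-3 at -1.14 ± 0.19 and erh-2 at -1.01 ± 0.26, all called, and tost-1 at -0.90 ± 0.31 was not (limma adjusted p = 0.0623).

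Of the 16 silencing genes, which act after PRG-1 has found its target, 14 fell in wild-type by limma and 12 with edgeR. The Argonaute genes wago-4, hrde-1 and wago-1 were at -1.98 ± 0.19, -1.82 ± 0.20 and -1.397 ± 0.18, and mut-2, which tails RNAs, was at -1.58 ± 0.21 (limma adjusted p from 4.22e-06 to 3.29e-05). Only nrde-2 (-0.29) and znfx-1 (-0.17) were not called by limma. In adr-2(-) with the block, wago-4, wago-1, hrde-1 and mut-2 were called lower, at -1.65 ± 0.13, -1.15 ± 0.20, -1.13 ± 0.15 and -0.71 ± 0.17.

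Markers of germ-line cell types moved between the same groups. In bulk animals, fewer cells of a type and less RNA per cell cannot be told apart. Summed over 18 sperm markers, normalized reads ran from 10592 to 13214 in adr-2(-) on sqd-1 RNAi and from 13039 to 16530 in wild-type on sqd-1 RNAi, against 1590 to 3469 in adr-2(-) and 3905 to 5200 in wild-type on control RNAi. In wild-type all 18 sperm markers rose by limma, as snpc-1.3 was higher. Summed oocyte markers (20 genes) ran from 63995 to 172190 in adr-2(-) and from 21631 to 48734 in wild-type on sqd-1 RNAi, against 186701 to 375320 in adr-2(-) and 154593 to 209871 in wild-type on control RNAi, and 18 of the 20 fell in wild-type. In adr-2(-) the limma fit called 0 markers of either list without pairing. With the block it called 17 sperm markers higher and 19 oocyte markers lower, where 17.1% of all genes were higher and 28.5% lower. No marker of either list was at 0 in any library. The part of these shifts in the changes of the 8 genes was not tested.

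General germ-line markers were lower on sqd-1 RNAi too. Their sum over 18 genes was 36085 to 55075 in adr-2(-) and 25127 to 33360 in wild-type on sqd-1 RNAi, against 65270 to 96220 in adr-2(-) and 58994 to 74928 in wild-type on control RNAi. In wild-type 14 of the 17 tested fell by limma. In adr-2(-), where all 18 were tested, limma called 0 without pairing and 15 lower with the block. Summed soma markers (14 genes) were 81734 to 143128 in adr-2(-) and 90332 to 101222 in wild-type on sqd-1 RNAi, against 57223 to 87198 in adr-2(-) and 60473 to 72935 in wild-type on control RNAi. The soma list was mixed by gene: in wild-type limma called 6 of the 14 higher and 1 lower. In adr-2(-) it called 0 without pairing and 3 higher with the block.

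Set against germ-line markers, the 8 genes parted. The marker sum was itself lower on sqd-1 RNAi, so any gene that fell less than the markers has a higher ratio there. Overlap of such ratios was not counted over all genes. Per 1000 summed reads of the 18 germ-line markers, tofu-4 gave 6.18, 6.49 and 6.17 in adr-2(-) on sqd-1 RNAi and 6.43, 6.63 and 6.82 in wild-type on sqd-1 RNAi, against 5.86, 5.95 and 6.32 in adr-2(-) and 6.14, 6.27 and 6.05 in wild-type on control RNAi. The highest of the 12 ratios was 1.16 times the lowest, while the level of tofu-4 itself varied 3.76-fold. Even so, its wild-type ratios were all higher on sqd-1 RNAi than on control RNAi, while the adr-2(-) groups overlapped. The gene tofu-4 was singled out after its values were seen.

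The ratio of tofu-5 was lower on sqd-1 RNAi in wild-type, at 10.1 ± 0.245, against 15.2 ± 0.339 on control RNAi (SD, n = 3 each), with no overlap. In adr-2(-) it was 16.5 ± 9.01 on sqd-1 RNAi and 17.999 ± 4.98 on control RNAi, and the groups overlapped. For snpc-4 and prde-1 the wild-type ratios were 37.2 ± 1.397 and 9.63 ± 1.64 on sqd-1 RNAi, against 33.4 ± 0.955 and 8.37 ± 0.824 on control RNAi. Those of snpc-4 were higher on sqd-1 RNAi without overlap, and those of prde-1 overlapped.

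Ratios of prg-1, henn-1 and parn-1 were higher on sqd-1 RNAi in wild-type, although their levels were not. For prg-1 the ratio was 110 ± 13.9 on sqd-1 RNAi and 78.3 ± 4.66 on control RNAi, for henn-1 it was 23.1 ± 0.835 on sqd-1 RNAi and 13.5 ± 1.29 on control RNAi, and for parn-1 it was 9.78 ± 1.03 on sqd-1 RNAi and 4.56 ± 0.493 on control RNAi, all 3 without overlap. In adr-2(-), parn-1 was at 9.22 ± 3.17 on sqd-1 RNAi and 5.03 ± 0.619 on control RNAi, also without overlap. There the groups overlapped for prg-1, at 103 ± 25.6 on sqd-1 RNAi and 95.3 ± 34.2 on control RNAi, and for henn-1, at 16.7 ± 3.81 on sqd-1 RNAi and 10.7 ± 4.06 on control RNAi. The ratio of snpc-1.3 was 16.01 ± 10.6 in adr-2(-) and 9.41 ± 2.15 in wild-type on sqd-1 RNAi, against 0.264 ± 0.151 in adr-2(-) and 0.321 ± 0.123 in wild-type on control RNAi.

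**Figure D4:**
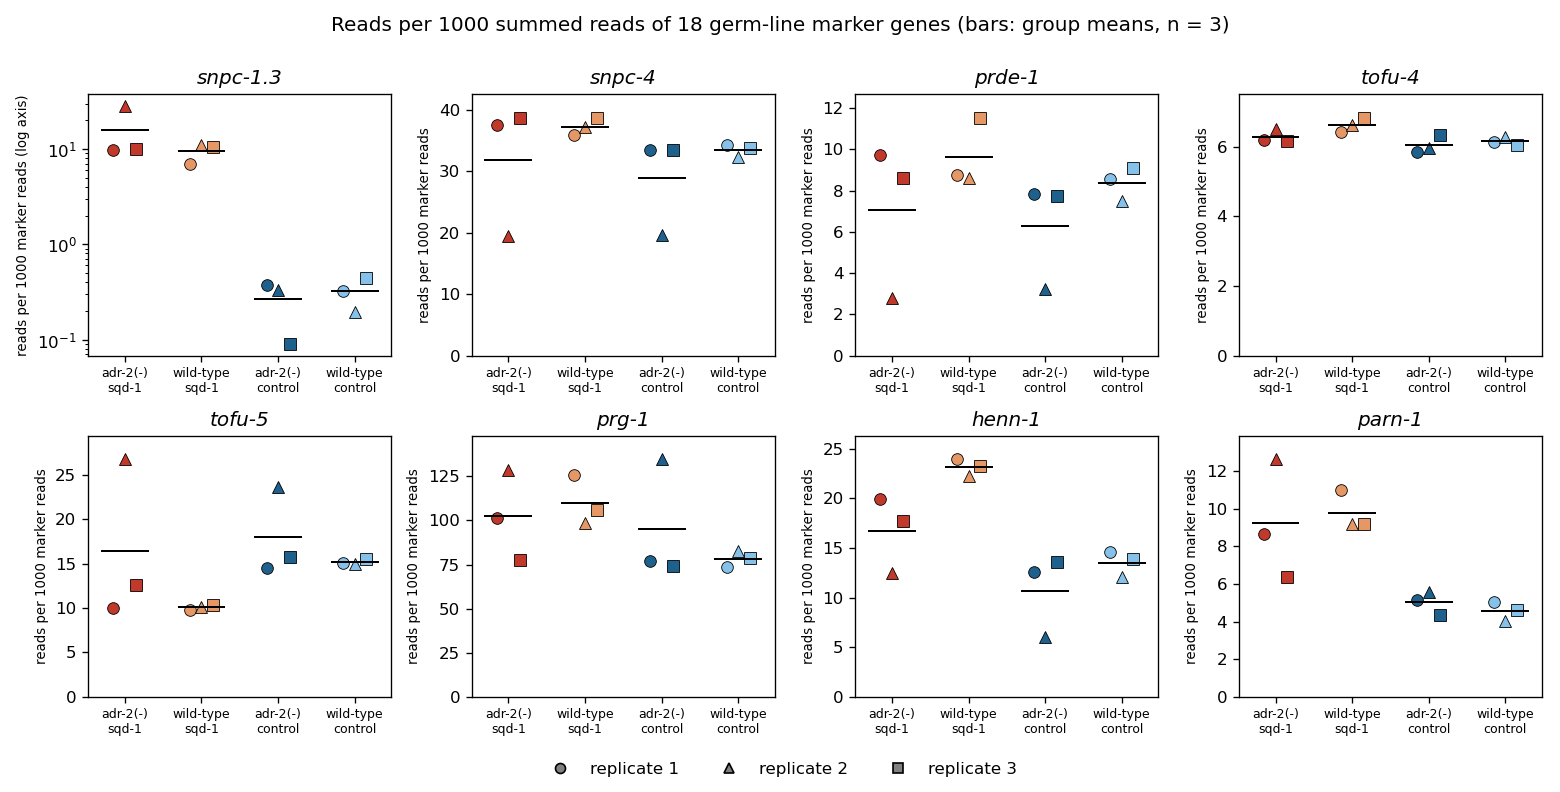
Reads of each of the 8 genes per 1000 summed normalized reads of 18 germ-line marker genes, in every library by group; symbols mark the replicate number and bars the mean (n = 3), and snpc-1.3 has a log axis. The ratio of tofu-4 stays between 5.86 and 6.82 in all 12 libraries. In wild-type it is higher on sqd-1 RNAi (6.43 to 6.82) than on control RNAi (6.05 to 6.27). The ratio of tofu-5 in wild-type is lower on sqd-1 RNAi (9.83 to 10.3) than on control RNAi (14.9 to 15.6).

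Across the 12 libraries the levels of the members correlated to very different degrees between pairs, which is a description only, since the libraries share the 4 groups and the adr-2(-) replicate order. On the log2 scale, Pearson's r was 0.93 between snpc-4 and prde-1, 0.91 between prde-1 and henn-1 and 0.86 between snpc-4 and henn-1. It was 0.92 between tofu-4 and tofu-5, 0.92 between tofu-5 and prg-1 and 0.76 between prg-1 and parn-1. The pair of snpc-4 and tofu-4 had 0.86, snpc-4 and tofu-5 had 0.60, and tofu-4 and prde-1 had 0.62. The value was 0.10 between prg-1 and henn-1 and 0.22 between tofu-5 and henn-1. With snpc-1.3, every other member had a negative r, from -0.79 for snpc-4 to -0.04 for parn-1.

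The genes most like snpc-1.3 in level over the 12 libraries, among 10998 genes with a mean of at least 50, were C47A4.5 (r = 0.964), Y46G5A.34 (0.964), Y41C4A.7 (0.961), cyp-14A5 (0.960) and fbxa-37 (0.959). Their sqd-1 RNAi means exceeded their control RNAi means in both genotypes, for example 3058 normalized reads in adr-2(-) and 2765 in wild-type on sqd-1 RNAi for cyp-14A5, against 278 in adr-2(-) and 290 in wild-type on control RNAi. Most like prg-1 were sec-16A.1 (r = 0.985), stt-3 (0.984), nath-10 (0.982), tbc-3 (0.982) and F54A3.2 (0.981).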

How the data were processed

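Poly-A RNA of 12 libraries was measured, prepared with a stranded kit per the labels' protocols. STAR 2.7.10b and DESeq2 are named in the submitters' processing notes. The read counter, its use of strand and the genome build are not given in the sources used here, and the labels give different growth times, so none is stated. The authors deposited 5 tables of 6 libraries, each with a log2 fold change, its standard error, a test statistic (a score, not used here), a p-value and adjusted p-value, and a normalized signal per gene and library (per the file headers).

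The normalized signal was turned back into reads: of 667263 values, 100% were whole within 0.001 reads, and 0 differed between tables. The values are therefore tested as normalized signal with limma (3.58.1 under R 4.3.3; linear fits with trended moderation on log2 of value + 1, for genes with a mean of at least 10 over 6 libraries), not as counts as first planned, and edgeR (version 4.0.16, quasi-likelihood) was run on the reads as an alternative. On the whole reads edgeR called 9384 genes in wild-type. Scripts were tested on simulated data. Reads per kb used exon bases of WBcel235 (Ensembl). Of the gene IDs, 24602 were in that annotation and 22915 had a symbol. Intervals and floors are not used, since all members had at least 11 reads, and reads carry no molecular identifiers. Chi-square per degree of freedom between replicates was 21.6 or more, so no libraries were copies.

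The 8 members and all lists were chosen with earlier results of these data known. Besides the members, up to 4 rises and 4 falls per list of largest fold change among called genes in wild-type were named, with the 5 genes most like snpc-1.3 and prg-1 and the targeted genes. No sequences are printed. Deviations of same-numbered libraries correlated at 0.279 to 0.357 within wild-type and 0.708 to 0.874 within adr-2(-), so the numbers were taken to pair libraries within a genotype, as inferred from these data. Between genotypes they ran from -0.608 to 0.250 and pair nothing. Alternatives were a pseudocount of 10, no filter, TMM scaling, the replicate block, all 12 libraries together, edgeR, and leaving out each library. Leaving out both adr-2(-) replicate 2 libraries, with and without the block, was chosen after seeing the data.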

Additional observations from a re-analysis of the deposited data

Results flagged for a closer look

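The gene lists above hold none of the annotated piRNA genes, but any with a mean of at least 10 counted among all tested genes. The tables listed 798 annotated piRNA genes (of 15363 in the annotation), and the libraries were selected for poly-A. Their summed normalized reads were 353, 309 and 262 in wild-type on sqd-1 RNAi (mean 308 ± 45.7), against 196, 176 and 153 in wild-type on control RNAi (mean 175 ± 21.4; SD, n = 3 each), so every sqd-1 RNAi library was above the controls. In adr-2(-) they were 314, 125 and 320 on sqd-1 RNAi and 211, 99.4 and 138 on control RNAi, and the groups overlapped. The sums rest on 55 to 415 reads per library, and the median gene had 1 read over all libraries. A single gene held 474 of the 2907 reads, and without it the sums were 315, 231 and 225 in wild-type on sqd-1 RNAi, against 170.4, 159.6 and 140.5 on control RNAi, still without overlap. Of the 798, 283 overlapped a protein-coding gene and 109 touched an exon of one, 2 of them on the same strand. The difference was not tested.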

How the results depend on the processing

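The snpc-1.3 value kept its sign under every alternative for sqd-1 RNAi in both genotypes. A joint fit of the 12 libraries called 3 members, 21 other piRNA genes and 4964 genes in wild-type, against 2 members, 12 other piRNA genes and 3176 genes for adr-2(-). With the replicate block, adr-2(-) gave 5 members, 26 other piRNA genes and 6411 genes; apart from snpc-1.3, for which no call is given, the block changed no member's call in the other comparisons, and it left 0 genes for both perturbations against wild-type on control RNAi. In adr-2(-), a pseudocount of 10 gave 403 genes, and leaving out both replicate 2 libraries 0, or, with the block, 5 members, 27 other piRNA genes and 5605 genes. For adr-2 loss on sqd-1 RNAi, a pseudocount of 10 and the fit of all 12 libraries gave 1 gene each. For both perturbations together, all 12 libraries gave 248 genes and edgeR 194. Leaving out 1 library gave 0 to 2 genes in adr-2(-), 0 to 1 for adr-2 loss on sqd-1 RNAi, and 0 to 1847 genes and 0 to 3 other piRNA genes for both together, the most without adr-2(-) sqd-1 RNAi replicate 2.

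Signs turned only for values that were not called. In wild-type, parn-1 was 0.041 with TMM and 0.11 with edgeR. For adr-2 loss on sqd-1 RNAi, henn-1 was -0.046 with TMM and prde-1 0.073 with edgeR, and in the genotype difference prg-1 was 0.070 without both replicate 2 libraries. Leaving out 1 library, henn-1 ran from -0.57 to 0.033 and parn-1 from -0.31 to 0.011 for sqd-1 RNAi in adr-2(-). For adr-2 loss on control RNAi, snpc-1.3 ran from -0.43 to 0.41, snpc-4 from -0.15 to 0.26, prde-1 from -0.50 to 0.16 and henn-1 from -0.40 to 0.21. On sqd-1 RNAi, snpc-4 ran from -0.15 to 0.64, prde-1 from -0.56 to 0.54 and henn-1 from -0.24 to 0.30. In the genotype difference, snpc-4 ran from -0.26 to 0.54, prde-1 from -0.40 to 0.71, tofu-4 from -0.10 to 0.23, prg-1 from -0.50 to 0.15, henn-1 from -0.22 to 0.38 and parn-1 from -0.28 to 0.029. The cause was not tested. In wild-type, the henn-1 call was also lost in 5 of the 6 fits that left out a library. With 3 libraries a group, none of the 7 members passed in adr-2(-) in the unpaired fit of its own 6 libraries.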
